A study of Mus musculus with 4 samples.

Results

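Chemokines and the scavenging receptors that remove them were compared between cells of mouse subcutaneous fat that were positive or negative for Mmp3. The 35 genes were chosen by name: 33 encode CC, CXC, CX3C or XC chemokines and 2 encode the atypical receptors Ackr3 and Ackr4. They were 35 of the 35580 genes to which the deposited transcripts were matched. The cells belonged to the stromal vascular fraction (what is left of digested fat once adipocytes are removed) of wild-type (WT) C57BL/6 mice. There were 2 libraries of Mmp3-positive cells and 2 of Mmp3-negative cells, and the labels numbered those of each group as set 1 and set 2. Both groups shared the strain, tissue, genotype and preparation, and differed only in the Mmp3 label; Mmp3 encodes stromelysin-1, a secreted protease that cuts extracellular matrix. The age and sex of the mice, the gating behind the reagent code in the labels, what a set was, and whether animals were pooled are not given in the sources used here. Nothing in the labels ties the libraries to different animals, so the p-values rest on the spread among 4 libraries, and that spread may be technical.

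Chemokines are small secreted proteins that bind to heparan sulfate on cells and matrix and guide leukocytes through G protein-coupled receptors. They are classed by the spacing of their first cysteines, and many are switched on by NF-kappaB or interferon signalling in fibroblasts, endothelial cells and macrophages. Atypical receptors bind chemokines without classical G protein signalling and take them up. In adipose tissue, stromal cells are a known source of chemokines that draw in monocytes, neutrophils and eosinophils.

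The libraries held between 17693755 and 20286221 estimated counts. Mmp3 itself, on the scale of counts relative to the library total (CPM), stood at 106 and 131 in set 1 and set 2 of the Mmp3-negative cells and at 4161 and 3409 in the Mmp3-positive cells, which checks the labels. Throughout, values of a group are given in the order set 1, set 2. The label of stromal vascular cells was checked against 8 fibroblast markers, which summed to 20610 and 29870 CPM in the Mmp3-negative and to 28590 and 36230 CPM in the Mmp3-positive libraries, with none at 0. All 8 had a log2 fold change above 0, with a median of 0.58, 0 past the edgeR threshold and 3 called higher by DESeq2, against 5.46% of all genes tested. The 11 macrophage and monocyte markers summed to 270 and 193 CPM in Mmp3-negative and to 35.7 and 33.2 CPM in the Mmp3-positive libraries. Of those 11 markers, 1 and 2 were at 0 counts in Mmp3-negative and 3 and 4 in Mmp3-positive cells. Markers of dendritic cells and antigen presentation summed to 162 and 62.6 against 13.7 and 2.19 CPM. Among them Cd74 stood at 85.7 and 20.2 against 3.53 and 0.051 CPM. Itgax stood at 7.72 and 7.21 against 6.47 and 0 CPM, and Flt3 was at 0 counts throughout. Pericyte and smooth muscle markers summed to 781 and 709 against 93.5 and 94.8 CPM, and endothelial markers to 377 and 247 against 219 and 209 CPM. Neutrophil markers (at most 17.8 CPM), T, NK and B cell markers (at most 14.5 CPM), mast cell and eosinophil markers (at most 5.395 CPM) and mesothelial and epithelial markers (at most 26.0 CPM) were low throughout. Of the lymphatic endothelial markers Pdpn, which fibroblasts also express, lay between 324 and 440 CPM, while Prox1 (7.12 and 5.02 against 0.789 and 0 CPM), Lyve1 (0 and 15.5 against 0 and 0 CPM) and Flt4 (at most 6.15 CPM) were low. Of 10 genes of the stress of tissue dissociation all had a log2 fold change below 0, with 2, Hspa1a and Hspa1b, past the edgeR threshold, where 0.0141% of all genes tested fell, so that no other gene did. DESeq2 called all 10 lower, where it called 4.18% of all genes lower. These 10 had a summed level of 8020 and 7846 against 2292 and 2430 CPM. The part of these cell types and of that stress in the chemokine values was not tested. In such bulk samples fewer cells of a type and less RNA per cell cannot be told apart.

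Promoters are printed here for 5 CXC chemokine genes, since 4 of them hold a match to an NF-kappaB motif and since their levels, described further on, moved differently between libraries. Each runs 5′ to 3′ on the gene's own strand from 250 bases before to 50 bases after the annotated start (RefSeq, build GRCm38.p6), so that position -1 is the base just before the start. Capitals mark matches, on either strand, to the kappaB consensus (by name) or to the core of the interferon-stimulated response element, which is GAAA, any 2 bases and GAAA again. Cxcl1, Cxcl2 and Cxcl3 lie in the CXC cluster on chromosome 5 at chr5:90890995-90891294, chr5:90903649-90903948 and chr5:90785851-90786150, all on the plus strand. The Cxcl10 window is chr5:92348840-92349139 on the minus strand and the Cxcl12 window, which holds neither motif, is chr6:117168285-117168584 on the plus strand.
Cxcl1: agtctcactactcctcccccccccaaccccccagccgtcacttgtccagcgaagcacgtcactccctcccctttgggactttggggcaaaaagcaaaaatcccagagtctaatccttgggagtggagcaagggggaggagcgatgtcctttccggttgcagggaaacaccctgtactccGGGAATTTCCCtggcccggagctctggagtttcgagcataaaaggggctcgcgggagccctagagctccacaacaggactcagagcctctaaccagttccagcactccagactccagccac
Cxcl2: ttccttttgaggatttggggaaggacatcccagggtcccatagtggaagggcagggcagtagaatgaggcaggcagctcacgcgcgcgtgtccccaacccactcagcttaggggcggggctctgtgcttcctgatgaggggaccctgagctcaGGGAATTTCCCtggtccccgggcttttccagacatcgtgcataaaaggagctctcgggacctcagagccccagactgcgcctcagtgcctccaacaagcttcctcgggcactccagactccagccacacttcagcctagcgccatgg
Cxcl3: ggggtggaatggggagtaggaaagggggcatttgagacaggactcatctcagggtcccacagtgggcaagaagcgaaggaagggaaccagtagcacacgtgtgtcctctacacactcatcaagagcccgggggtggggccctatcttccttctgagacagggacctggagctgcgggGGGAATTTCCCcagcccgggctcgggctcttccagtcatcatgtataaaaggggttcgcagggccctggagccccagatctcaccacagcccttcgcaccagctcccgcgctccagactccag
Cxcl10: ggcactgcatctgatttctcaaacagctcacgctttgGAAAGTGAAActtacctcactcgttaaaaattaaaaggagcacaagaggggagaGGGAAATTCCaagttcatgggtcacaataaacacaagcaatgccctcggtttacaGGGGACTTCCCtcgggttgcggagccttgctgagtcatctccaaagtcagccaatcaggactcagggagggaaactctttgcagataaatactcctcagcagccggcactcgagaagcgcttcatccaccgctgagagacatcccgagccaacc
Cxcl12: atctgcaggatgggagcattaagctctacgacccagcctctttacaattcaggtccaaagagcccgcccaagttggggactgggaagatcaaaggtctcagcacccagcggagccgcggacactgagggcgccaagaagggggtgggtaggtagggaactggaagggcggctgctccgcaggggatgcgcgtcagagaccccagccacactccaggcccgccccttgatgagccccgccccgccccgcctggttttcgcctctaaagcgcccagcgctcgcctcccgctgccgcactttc

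The kappaB match GGGAATTTCC had the same letters in Cxcl1, Cxcl2 and Cxcl3, with its first base at position -71, -97 and -73. The reverse strand gave a second match there that overlaps the first by all but 1 base. Cxcl10 had a kappaB match at -159, an overlapping pair from -104, and the interferon element GAAAGTGAAA at -213. Of the 35 genes, 26 were in the promoter table with 29 windows. The other 9, which were Ccl2, Ccl4, Ccl5, Ccl7, Ccl11, Ccl24, Cxcl5, Cxcl11 and Cxcl16, had no window and were not searched. The kappaB consensus was found in windows of 7 genes, Ccl9, Ccl20, Ccl27a, Cxcl1, Cxcl2, Cxcl3 and Cxcl10, and in 8.46% of all 32851 windows of that length. The interferon element was found in 3 genes, Ccl19, Cxcl10 and Cxcl14, and in 3.44% of all windows. These matches describe letters, and genes of one cluster share ancestry, so the windows are not independent.

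Transcripts of 29 of the 35 genes were detected in at least 1 library. Ccl6, Ccl12, Ccl20, Cxcl11, Cxcl13 and Xcl1 had 0 counts in all 4, which allows up to 3 counts per library or between 0.153 and 0.173 CPM. Cxcl11 is annotated as a polymorphic pseudogene. Taking a gene as expressed where both libraries of a group reached 1 TPM (a level scaled to transcript length and library total), 16 were expressed in Mmp3-negative and 17 in Mmp3-positive cells. Levels are compared between genes on the TPM scale, and the same gene between libraries on the CPM scale.

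Ccl2, the monocyte attractant also called MCP-1, had the highest TPM of the 35 in every library, at 552 and 491 TPM in the Mmp3-negative and 1287 and 670 TPM in the Mmp3-positive libraries. Cxcl1, a neutrophil attractant, followed by mean TPM in both groups, at 268 and 189 TPM against 520 and 202 TPM. Ccl7, a monocyte attractant next to Ccl2 on chromosome 11, had the next mean TPM, at 98.3 and 192 TPM against 403 and 296 TPM. The libraries of Cxcl1 and Ccl7 overlapped within each group, so their order is within the spread. Cxcl5, another neutrophil attractant, came next, at 125 and 99.4 TPM against 385 and 154 TPM. The interferon-induced Cxcl10 followed, at 125 and 39.3 TPM against 276 and 131 TPM. Of these Cxcl10 values, 75.3 and 0 against 167 and 84.5 TPM lay on Cxcl10-203, a transcript of 344 bases annotated with a retained intron. The TPM of Cxcl10 thus rests in part on that short transcript. Ccl2, Cxcl1 and Ccl7 together made up 59.0% and 60.2% of the summed TPM of the 35 genes in the Mmp3-negative and 64.7% and 65.9% in the Mmp3-positive libraries. After these 5, Pf4 was next by mean TPM in Mmp3-negative cells (89.0 and 34.4 TPM), within the spread of Cxcl12 (44.5 and 76.1 TPM), Ackr3 (54.0 and 54.4 TPM) and Ccl11 (20.7 and 54.1 TPM), and Ccl11 next in Mmp3-positive cells (116 and 78.8 TPM), within the spread of Cxcl12 (88.9 and 58.7 TPM).

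**Figure D1:**
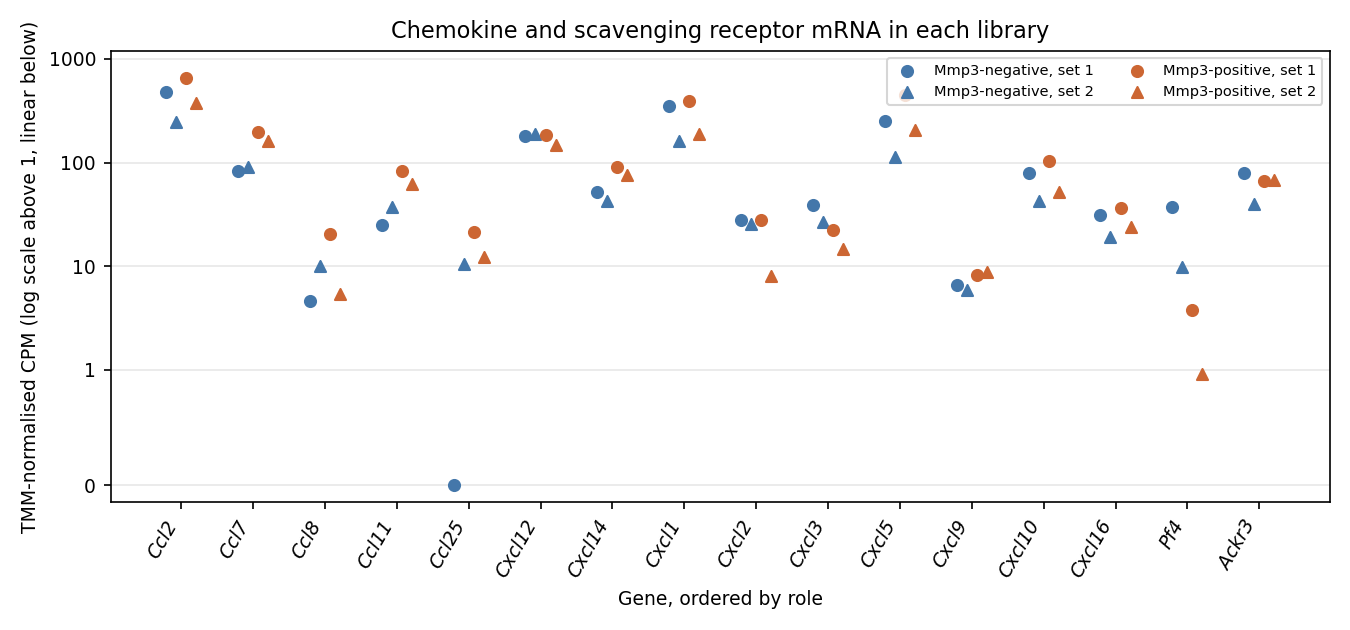
TMM-normalised CPM of the 16 genes with an average of at least 5 CPM, ordered by role; each point is 1 library (circles set 1, triangles set 2), with the axis logarithmic above 1 and linear below. Ccl7, Ccl11 and Cxcl14 sit higher in both Mmp3-positive libraries, Pf4 and Cxcl3 lower, and Cxcl12 lies between 148 and 190 CPM throughout.

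The comparison asked how Mmp3-positive cells differed from Mmp3-negative ones. Of the 35 genes, 20 passed the filter on low counts and were tested among 14185 genes with edgeR's quasi-likelihood test with Benjamini-Hochberg adjustment. At an adjusted p of 0.05, 0 of the 20 rose and 0 fell, where 0.00705% of all genes tested rose and 0.0141% fell (0.0211% in either direction). At an unadjusted p under 0.05 there were 4 (Ccl7, Ccl11, Cxcl14 and Pf4), against 8.87% of all genes. The DESeq2 Wald test called the same 4, with Ccl7, Ccl11 and Cxcl14 higher and Pf4 lower, where it called 5.46% of all genes higher and 4.18% lower (9.64% in either direction). The log2 fold change was above 0 in 12 and below 0 in 8, with a median of 0.22, against 51.1% above 0 and a median of 0.02 over all genes tested. In 5 of the 20, Ccl7, Ccl11, Ccl25, Cxcl9 and Cxcl14, both Mmp3-positive libraries stood above both Mmp3-negative ones, as in 22.5% of all genes tested. In 2, Cxcl3 and Pf4, both Mmp3-negative libraries stood above, as in 17.3% of all genes. The share of 5 in 20 is near its background. On the per-length TPM scale the tally was larger: 9 of the 20 stood higher without overlap, as in 25.9% of all genes tested, and 5 lower, as in 10.9%. Ccl2, Cxcl5, Cxcl10 and Cxcl16 joined the higher and Ccl19, Cxcl2 and Ackr3 the lower genes on that scale. The scales were not proportional across libraries. For Ccl11, with all counts on a single transcript, TPM stood below CPM in Mmp3-negative set 1 only (20.7 against 25.0). Its ratio of Mmp3-positive to Mmp3-negative was 5.61 by TPM and 3.28 by CPM in set 1, and 1.46 and 1.67 in set 2. For Mmp3 it was 67.3 and 39.2 in set 1, and 22.8 and 26.1 in set 2. The tally by TPM carries this difference of scale.

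**Figure D2:**
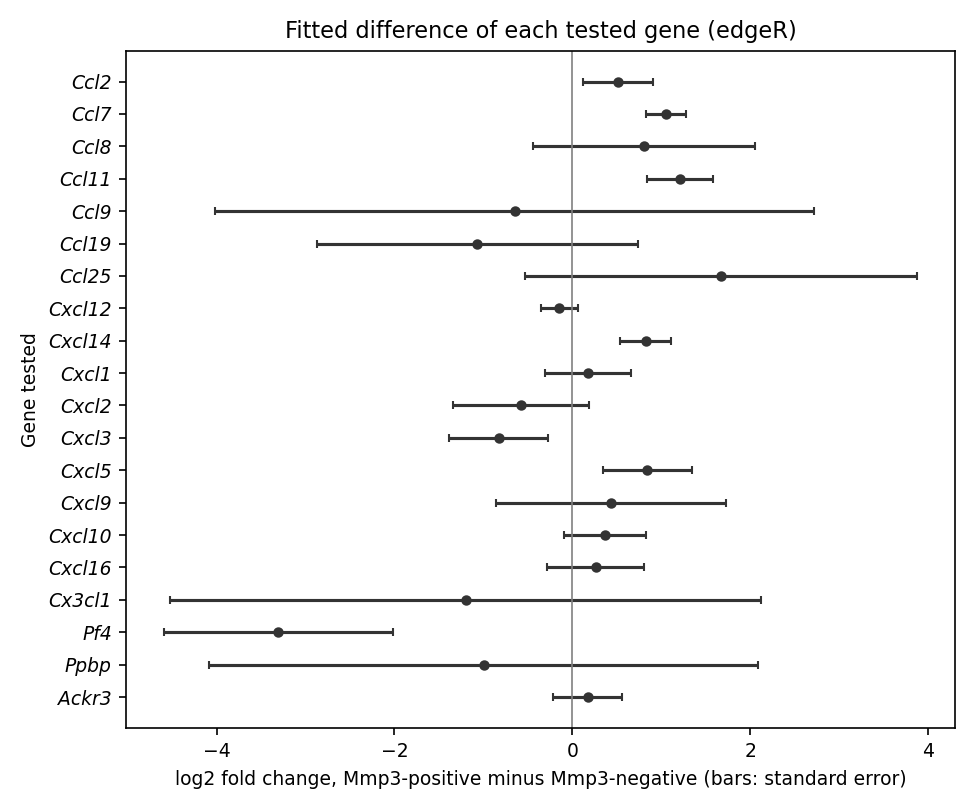
Fitted log2 fold change (Mmp3-positive minus Mmp3-negative) of the 20 tested genes from edgeR, with bars of 1 standard error. Values run from -3.30 for Pf4 to 1.67 for Ccl25, and the widest bars belong to genes at 0 counts in at least 1 library.

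Among the CC chemokines that attract monocytes and eosinophils, 4 of 6 were tested and all 4 had a log2 fold change above 0, with 0 past the threshold. Ccl7 stood at 82.3 and 91.5 CPM in the Mmp3-negative and at 198 and 162 CPM in the Mmp3-positive libraries. Its groups did not overlap, and the ratio was 2.41 in set 1 and 1.77 in set 2. The log2 fold change was 1.05 with a standard error of 0.22 (edgeR adjusted p = 0.480, DESeq2 adjusted p = 3.21e-05). Ccl11, the eosinophil attractant eotaxin, stood at 25.0 and 37.4 CPM against 82.2 and 62.4 CPM. Its groups did not overlap either, with a log2 fold change of 1.21 and a standard error of 0.37 (edgeR adjusted p = 0.480, DESeq2 adjusted p = 0.0159). Its ratio was 3.28 in set 1 and 1.67 in set 2. Ccl2 stood at 476 and 245 CPM against 652 and 376 CPM. The groups overlapped, although the Mmp3-positive library was higher within each set (1.37 and 1.53 times; log2 fold change 0.51 with a standard error of 0.39, edgeR adjusted p = 0.916). Leaving out the first Mmp3-positive library gave 0.06 for Ccl2, and leaving out the first Mmp3-negative library 1.06. Ccl8, a monocyte attractant, stood at 4.64 and 10.03 CPM against 20.3 and 5.35 CPM and went opposite ways in the 2 sets. Ccl2, Ccl7, Ccl11, Ccl12 and Ccl8 follow one another on the plus strand of chromosome 11, from Ccl2 at 82035571 to 82037453 to Ccl8 at 82115185 to 82116799 (GRCm38). Ccl12 within that row had 0 counts, and Ccl24, an eosinophil attractant on chromosome 5, had 161 counts in Mmp3-negative set 2 alone.

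The CXC ligands of the neutrophil receptor Cxcr2 split by direction, with 2 of the 4 tested above 0, 2 below and 0 past the threshold. Cxcl5 stood at 254 and 114 CPM in the Mmp3-negative and at 450 and 208 CPM in the Mmp3-positive libraries. Within each set the Mmp3-positive library was higher, 1.78 times in set 1 and 1.83 times in set 2, while the groups as a whole overlapped (log2 fold change 0.84 with a standard error of 0.50, edgeR adjusted p = 0.808). Leaving out the first Mmp3-positive library gave 0.18 and leaving out the first Mmp3-negative library 1.53. Cxcl1 stood at 354 and 162 CPM against 395 and 188 CPM, a ratio of 1.11 and 1.16 within the sets. Its difference between sets was larger than that between groups. Cxcl3 went the other way, at 39.1 and 26.8 CPM against 22.5 and 14.7 CPM, a ratio of 0.575 in set 1 and 0.547 in set 2 (log2 fold change -0.83 with a standard error of 0.56, edgeR adjusted p = 0.877). Cxcl2 stood at 27.7 and 25.7 CPM against 27.8 and 7.99 CPM, with a low value in the second Mmp3-positive library only. Cxcl1, Cxcl2 and Cxcl3 thus held the same kappaB match in their promoters and did not share an order of the 4 libraries. Reads of these similar genes can be shared, so the split between Cxcl1, Cxcl2 and Cxcl3 is uncertain. Cxcl15, known from lung epithelium, had 22.5 estimated counts in 1 Mmp3-positive library and 0 in the rest.

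The interferon-induced ligands of Cxcr3, which attract activated T cells, were tested for Cxcl10 and Cxcl9, with 0 of 2 past the threshold. Cxcl10 stood at 78.6 and 42.7 CPM against 104 and 52.4 CPM, with overlapping groups and ratios of 1.32 and 1.23 within the sets. Cxcl9 was low in all libraries, at 6.64 and 5.88 CPM against 8.21 and 8.76 CPM (log2 fold change 0.44 with a standard error of 1.29, edgeR adjusted p = 0.999).

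Cxcl12, the stromal ligand of Cxcr4 that retains hematopoietic cells, was the most even of the abundant genes, at 180 and 190 CPM in the Mmp3-negative and at 186 and 148 CPM in the Mmp3-positive libraries. Its log2 fold change was -0.15 with a standard error of 0.20 (edgeR adjusted p = 0.999). Its counts were divided mainly between a transcript of 5627 bases (Cxcl12-201) and one of 1878 bases (Cxcl12-202). The shorter one held 36.5% and 27.9% of the gene's counts in the Mmp3-negative and 46.3% and 40.2% in the Mmp3-positive libraries. These shares did not overlap between the groups, but they were not tested. How often such shares separate over other genes was not computed, so no difference in transcript use is read from them. Cxcl14, a constitutively expressed chemokine of epithelium and stroma, stood at 51.6 and 42.7 CPM against 91.2 and 75.9 CPM. The groups did not overlap, and the ratio was nearly the same in set 1 (1.77) and set 2 (1.78). Its log2 fold change was 0.82 with a standard error of 0.29 (edgeR adjusted p = 0.480, DESeq2 adjusted p = 0.0374).

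Of the other homeostatic and lymphoid ligands, Ccl25, known for guiding T cells in thymus and gut, stood at 0 and 10.6 CPM against 21.4 and 12.4 CPM (log2 fold change 1.67 with a standard error of 2.20, edgeR adjusted p = 0.998). Without Mmp3-negative set 2 it stood at 0 in the lone Mmp3-negative library, assumed to vary like the other group, and it then passed (edgeR adjusted p = 0.0177, where 1.45% of all genes were called higher). Its counts lay on different transcripts in each library: in Mmp3-negative set 2 all of them lay on a transcript annotated for nonsense-mediated decay, which held 37.3% and 10.6% in the Mmp3-positive libraries. In Mmp3-positive set 1 a further transcript of that class held 19.5% and one with a retained intron 10.3%. In Mmp3-positive set 2 a transcript annotated for non-stop decay held 31.0% and a protein-coding one, Ccl25-201, 57.6%. Ccl25 overlaps Elavl1 on the opposite strand, which had between 571 and 1319 counts, and the strand setting of the counting was not given. Ccl19, a ligand of Ccr7, stood between 2.37 and 2.75 CPM in 3 libraries and at 8.20 CPM in Mmp3-negative set 1. In all 4 libraries 100% of its counts lay on Ccl19-202, annotated as a processed transcript and not as protein-coding.

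Of the membrane-anchored ligands, Cxcl16, which also acts as a scavenger receptor on its own cell, stood at 31.1 and 19.1 CPM against 36.3 and 24.1 CPM, with overlapping groups. Its protein-coding transcript Cxcl16-201 held 244 estimated counts in Mmp3-negative set 1. It held 0 in Mmp3-negative set 2 and in both Mmp3-positive libraries. All other Cxcl16 counts lay on transcripts annotated with a retained intron or for nonsense-mediated decay. Cx3cl1, or fractalkine, had 101 counts in Mmp3-negative set 2, 48 in Mmp3-positive set 1 and 0 in the others. Neither passed the threshold (edgeR adjusted p = 0.999 for both).

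Pf4, platelet factor 4, had the lowest log2 fold change of the tested genes. It stood at 37.2 and 9.86 CPM in the Mmp3-negative and at 3.79 and 0.967 CPM in the Mmp3-positive libraries. The groups did not overlap, and the ratio of Mmp3-positive to Mmp3-negative was 0.102 in set 1 and 0.0981 in set 2. Its log2 fold change was -3.30 with a standard error of 1.29 (edgeR adjusted p = 0.529, DESeq2 adjusted p = 0.0175). Pf4 is stored in platelets and is also made by some tissue macrophages. Of the macrophage and monocyte markers, all 10 tested had a log2 fold change below 0, with a median of -2.80, 0 past the edgeR threshold and 3 called lower by DESeq2, against 4.18% of all genes tested. Of 4 platelet and megakaryocyte markers Gp9 was at 0 counts in every library, and the list summed to 28.2 and 26.8 CPM in the Mmp3-negative and 24.7 and 13.0 CPM in the Mmp3-positive libraries, with 1 and 3 and then 1 and 2 markers at 0. The part of either cell type in the Pf4 difference was not tested. Ppbp, a platelet chemokine beside Pf4 on chromosome 5, had 47 counts in Mmp3-negative set 1, 24 in Mmp3-positive set 1 and 0 in both set 2 libraries.

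Ackr3, a scavenger of Cxcl12, stood at 79.0 and 40.3 CPM in the Mmp3-negative and at 66.2 and 68.1 CPM in the Mmp3-positive libraries, so the groups overlapped (log2 fold change 0.17 with a standard error of 0.39, edgeR adjusted p = 0.999). Its 2 transcripts differed. The short Ackr3-202 of 404 bases held 210 and 121 counts in the Mmp3-negative libraries, 14.3% and 17.3% of the gene, and 0 in both Mmp3-positive ones. The long Ackr3-201 of 3065 bases held 1255 and 578 counts against 1258 and 1338. On the TPM scale the gene therefore stood at 54.0 and 54.4 in the Mmp3-negative and 29.6 and 27.1 in the Mmp3-positive libraries. Ackr3-201 alone stood at 17.6 and 15.2 TPM against 29.6 and 27.1 TPM, although its set 1 counts were nearly equal. Its set 1 gap thus appeared only on the TPM scale, which ran low in Mmp3-negative set 1, as given for Ccl11. With an offset for transcript length the log2 fold change turned to -1.24 (edgeR adjusted p = 0.546). Ackr4, a scavenger of Ccl19 and Ccl25, had 131 counts in Mmp3-negative set 1, 1 in set 2 and 0 in both Mmp3-positive libraries.

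Altogether 8 genes had at least 10 counts in exactly 1 library, among 28 of the 35 genes with that many in any. Over all genes, 16.7% of the 17076 with at least 10 counts in any library had them in only 1. Ccl3, Ccl4 and Ccl5, inflammatory chemokines made by macrophages and T cells, had 191, 130 and 41 counts in Mmp3-negative set 1 and 0 in the other 3 libraries. Ccl9, a ligand of Ccr1, had 150 counts there, of which 98.6% lay on a short processed transcript, and 98.5 in Mmp3-positive set 1, all on the long protein-coding transcript. The macrophage and monocyte markers summed highest in that same Mmp3-negative library, at 270 CPM, but did not share an order. Between the Mmp3-negative libraries C1qa, C1qb (78.6 and 10.6 CPM) and C1qc (74.3 and 4.33 CPM) were higher in set 1. Cd68, Laptm5 (17.7 and 53.5 CPM), Lyz2 (7.88 and 24.5 CPM), Cd14, Adgre1 and Ptprc were higher in set 2. Csf1r was nearly equal and Mrc1 at 0 in both. The part of these markers in the counts was not tested. Ccl17, a ligand of Ccr4 made by dendritic cells, had 71 counts in Mmp3-negative set 2 and 0 elsewhere. The remaining genes of this kind were Ccl24, Ackr4, Cxcl15 and Ccl27a, a skin chemokine with 12 counts in Mmp3-positive set 2. Ccl22 had 4 counts in a single library.

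Several chemokines differed more between the sets than between the groups. Cxcl5 was 2.23 times as high in set 1 as in set 2 in Mmp3-negative and 2.165 times in Mmp3-positive cells. The same ratios were 2.19 and 2.10 for Cxcl1, 1.945 and 1.735 for Ccl2, 1.84 and 1.98 for Cxcl10, and 1.63 and 1.51 for Cxcl16. Both set 1 libraries stood above both set 2 libraries in 8 of the 20 tested genes and both set 2 libraries above in 0, against 16.2% and 15% of all genes tested. Those 8 were Ccl2, Cxcl1, Cxcl2, Cxcl5, Cxcl10 and Cxcl16, with Ccl9 and Ppbp, which were at 0 counts in both set 2 libraries. Set 1 was also higher in both groups for Cxcl14 (1.21 and 1.20), Cxcl3 (1.46 and 1.53) and Pf4 (3.775 and 3.92), whose Mmp3 groups did not overlap. Ccl7, Ccl11 and Cxcl12 did not follow the sets. Their ratios lay between 0.670 and 0.946 in the Mmp3-negative and between 1.22 and 1.32 in the Mmp3-positive cells. No test of the sets was made.

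**Figure D3:**
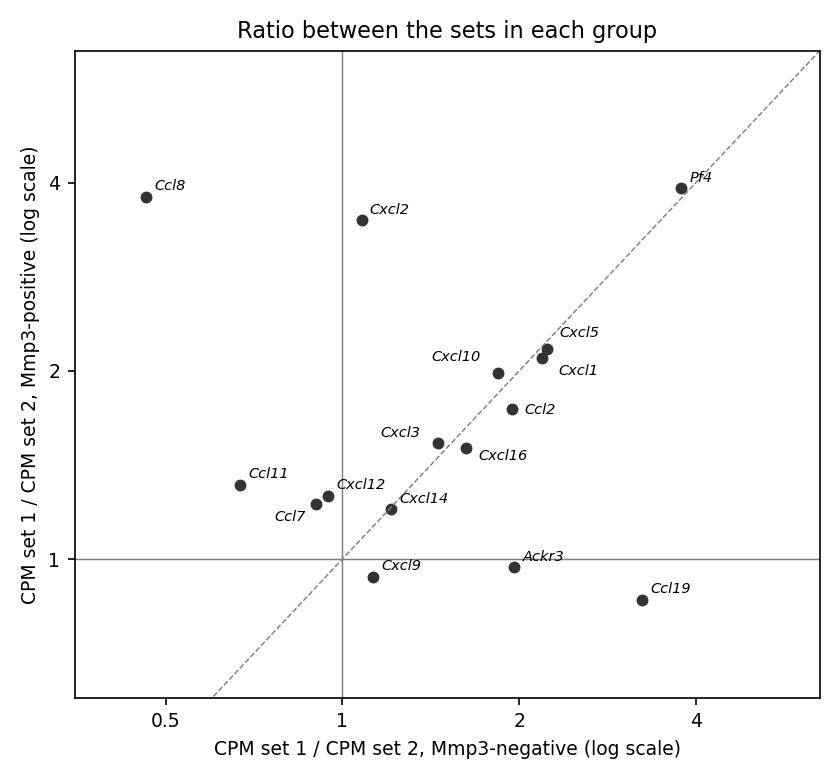
Ratio of CPM in set 1 to set 2 in Mmp3-negative cells (horizontal) and Mmp3-positive cells (vertical), both on log scales, for the genes with counts in all 4 libraries; the dashed line marks equal ratios. Cxcl1, Cxcl5, Cxcl10, Ccl2 and Cxcl16 lie near the line between 1.51 and 2.23, and Ccl7, Ccl8, Ccl11 and Cxcl12 lie left of 1 on the horizontal axis.

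A large part of the counts of several CXC chemokines was assigned to transcripts annotated with a retained intron. For Cxcl1 that share was 39.7% and 57.0% in the Mmp3-negative and 36.7% and 50.1% in the Mmp3-positive libraries. For Cxcl5 it was 46.5% and 39.8% against 40.3% and 56.6%, and for Cxcl10 it was 22.4% and 40.8% against 24.7% and 30.9%. For Cxcl16 it was 52.6% and 99.0% against 51.2% and 63.8%; this gene overlaps Zmynd15 on the opposite strand, which had 1110 counts in Mmp3-negative set 2 and between 106 and 429 in the others. Cxcl1, Cxcl10 and Cxcl16 had the higher share in set 2 of both groups, where their counts were lower. So did Cxcl3, at 0% and 40.5% against 42.9% and 60.7%. Cxcl5 did not, and neither did Cxcl2, at 36.4% and 58.1% against 77.5% and 46.1%. Ccl2, the most abundant of the 35, had a share between 0.837% and 8.06%. Over the genes tested with such a transcript and at least 100 counts, the median share was between 5.80% and 9.77% in the 4 libraries. The exact 95% Clopper-Pearson intervals were narrow, for example 38.5% to 40.8% for Cxcl1 in Mmp3-negative set 1, and cover counting error only. kallisto assigns reads by compatibility, so these shares are estimates and not counts of unspliced RNA.

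**Figure D4:**
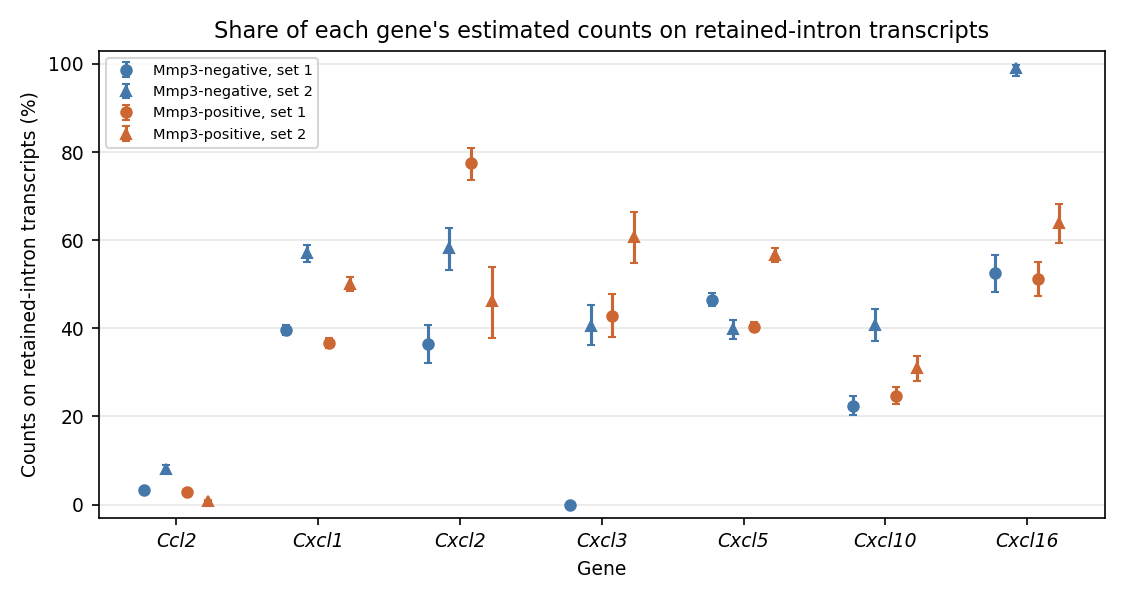
Percentage of each gene's estimated counts on retained-intron transcripts in each library (circles set 1, triangles set 2), with exact 95% binomial intervals as bars. Ccl2 stays at or below 8.06%, while Cxcl1 lies between 36.7% and 57.0%.

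The receptors that answer these ligands were scarce. Of 18 signalling chemokine receptors, 7 passed the filter, with 0 higher and 0 lower (edgeR, where 0.0211% of all genes passed). DESeq2 called 1 lower, where it called 4.18% of all genes lower, and the median log2 fold change was -1.695. Cx3cr1, the fractalkine receptor of monocytes and macrophages, stood at 3.05 and 4.64 TPM against 0.230 and 0.804 TPM, and Cxcr5, the receptor of Cxcl13, at 0 and 4.82 TPM against 0 and 1.30 TPM. Of the other 3 atypical receptors, Ackr2, which scavenges inflammatory CC chemokines, was the only one tested, at 3.88 and 0 CPM against 8.58 and 6.47 CPM. The summed TPM of the 18 signalling receptors was between 5.97 and 19.5, against a summed TPM of 1448 to 3413 for the 35 chemokine and scavenger genes.

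Genes of the signalling that induces chemokine transcription, among them the NF-kappaB inhibitors Nfkbia and Tnfaip3, did not move in one direction. Of 19 such genes 18 were tested, 7 with a log2 fold change above 0 and 11 below, with a median of -0.08. Of these, 0 passed the edgeR threshold, where 0.0211% of all genes passed. DESeq2 called 1 higher and 2 lower, where it called 5.46% of all genes higher and 4.18% lower. Nfkbia, the NF-kappaB inhibitor and target, stood at 378 and 258 CPM against 391 and 368 CPM. Tnfrsf1a, a receptor for tumour necrosis factor, stood at 225 and 214 CPM against 207 and 225 CPM. Irf1, an interferon-responsive transcription factor, stood at 192 and 166 CPM against 106 and 77.2 CPM without overlap (log2 fold change -0.96, edgeR adjusted p = 0.480). Tnf, named after its values were seen, stood at 16.1 and 6.00 CPM against 0 counts in both Mmp3-positive libraries. Il1r1, named likewise, stood higher without overlap, at 206 and 176 CPM against 379 and 257 CPM (log2 fold change 0.74, edgeR adjusted p = 0.480). Nfkb2, Rela and Tnfrsf1b stood lower in the Mmp3-positive libraries without overlap. All 16 genes for chemokine-trimming proteases and heparan sulfate partners were tested, 11 above 0 and 5 below, with a median of 0.23. Again 0 passed the edgeR threshold (0.0211% of all genes), and DESeq2 called 1 higher (5.46% of all genes). Mmp14 and Mmp2, proteases that cleave chemokines, stood between 696 and 996 CPM in all libraries, and Sdc4, the heparan sulfate proteoglycan syndecan-4, between 261 and 379 CPM.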

How the data were processed

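Per the labels' protocols, extraction used a kit designed for fixed, embedded tissue, and the Illumina libraries kept strand after removal of ribosomal RNA. Per the submitters' processing notes, the tool was kallisto 0.45.0 and the build GRCm38. Its transcript set, strand setting and any trimming are not given in the sources used here. The deposited tables hold the authors' estimated counts and TPM, with lengths, for 115270 transcripts per library.

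Estimated counts were summed per gene (GENCODE M21; 113580 transcripts matched, 1690, holding 0.729% to 2.08% of the counts, did not and were left out) and rounded. Where 2 gene identifiers shared the symbol Ccl19, the second held 0 counts. Genes were filtered with filterByExpr (minimum count 10), scaled by TMM and tested with edgeR 4.0.16 (R 4.3.3), two-sided, without covariates, with 2 residual degrees of freedom. Each standard error is the size of the log2 fold change divided by the root of edgeR's F. Genes averaging at least 5 CPM, on TMM-scaled library sizes, are given per library, and genes with at least 10 counts in 1 library may be named. Lists of receptors, inducers and partners name their 3 members highest in TPM, of which 1 is not reported here, and cell type marker lists are given as sums. The members and lists were chosen with earlier results of these data known. Alternatives used DESeq2 1.42.0 and limma 3.58.1 (log2 of TPM plus a pseudocount of 1). Of these tests only that of edgeR was tried on simulated counts.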

Additional observations from a re-analysis of the deposited data

How the results depend on the processing

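None of the 20 tested chemokine and scavenger genes passed the edgeR threshold with all 4 libraries, and this held (0 higher, 0 lower) under DESeq2 size factors, without the count filter, under the length offset, under limma on log2(TPM + 1), and without Mmp3-negative replicate 1 or either Mmp3-positive replicate. The DESeq2 Wald test called 3 higher and 1 lower, and leaving out a library in turn gave 0 to 1 higher, the 1 being Ccl25 without Mmp3-negative replicate 2. The set number as a replicate block called 0 higher and 0 lower. The main fit did not treat the sets as pairs because the labels do not say what a set was. Same-numbered deviations correlated at 0.0261 over all genes tested, with 2 pairs, which cannot show whether the sets were paired. Among the 20 tested genes, both set 1 libraries stood above both set 2 libraries in 8 and below them in 0. Other thresholds for expression (0.5 TPM, or 10 counts) gave the same numbers of genes, 16 and 17.

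Of the 20 tested genes, 9 kept their direction under all 10 alternatives and 11 turned in at least 1. The length offset gave 0.079 for Cxcl12 and -1.24 for Ackr3, and limma gave 0.31 and -0.91; both alternatives use the deposited lengths or TPM, and beyond this the cause was not tested. Leaving out each library in turn gave log2 fold changes of -0.46 to 1.47 for Ccl8, -9.23 to 8.59 for Ccl9, -1.68 to 0.0072 for Ccl19, -0.45 to 0.84 for Cxcl1, -1.74 to 0.055 for Cxcl2, -0.21 to 0.87 for Cxcl10, -0.32 to 0.0077 for Cxcl12, -0.061 to 0.65 for Cxcl16, -8.76 to 7.59 for Cx3cl1, -7.56 to 6.57 for Ppbp and -0.23 to 0.73 for Ackr3. For the 9 that kept their direction the same ranges were 0.059 to 1.06 for Ccl2, 0.90 to 1.19 for Ccl7, 0.95 to 1.53 for Ccl11, 0.665 to 11.33 for Ccl25, -1.17 to -0.54 for Cxcl3, 0.18 to 1.53 for Cxcl5, 0.36 to 0.52 for Cxcl9, 0.69 to 0.96 for Cxcl14 and -4.59 to -2.06 for Pf4. Sizes beyond 6 come from groups left at 0 counts and are no measure of a fold.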
